A study of Mus musculus with 6 samples.

Results

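The Vps genes encode proteins that sort vesicles between the Golgi apparatus, endosomes, lysosomes and the plasma membrane. They were named after yeast vacuolar protein sorting mutants, and most of their products work as subunits of multi-protein machines. Members were the genes whose symbol in the array annotation begins with Vps and a number. Of the 35 such genes, 33 had a probe set listed with that gene alone and were measured, out of 22180 genes with a probe set of their own. Vps25 and Vps51 shared their probe sets with neighbouring genes (Vps25 with Ramp2, Vps51 with Zfpl1). Where a gene had more than 1 probe set, the level chose it: the probe set with the highest mean over the 6 arrays was read. The difference between the groups did not enter the choice.

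Expression was measured in RAW 264.7 cells, a mouse macrophage-like line, in 3 samples transfected with a GapmeR against Mist (Mist-targeted) and in 3 samples transfected with a non-targeting GapmeR (Control). A GapmeR is an antisense oligonucleotide, here with locked nucleic acids, that directs RNase H to cut the matching RNA; Mist is a long noncoding RNA of macrophages. All 6 samples received 50 nM oligonucleotide in a lipid reagent, and RNA was taken after 48 h, so both groups carry the transfection. The annotation named 0 probe sets Mist, so its own level was not analysed here, and the labels name a single GapmeR against it in a single cell line.

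Values are the authors' log2 expression, with RMA named in their processing notes, over 41345 probe sets, with array medians of 4.47 to 4.50. Differences are Mist-targeted minus Control, and a gene was called when its adjusted p (limma, Benjamini-Hochberg over all probe sets) was under 0.05. All 9 macrophage markers, among them Adgre1, Csf1r and Cd68, lay above the array medians on every array. Their summed level was 13.9 to 14.0 on the log2 scale in Mist-targeted samples and 14.0 to 14.1 in Control samples, and its part in the results was not tested. Of the 9, Fcgr1 alone was called, at 10.10 in Mist-targeted and 9.09 in Control samples (adjusted p = 0.012). Of the markers of T cells, B cells, fibroblasts and epithelium, 1 of the 15 measured, Col1a1, lay above the array medians throughout. As a scale for what follows, the actin-binding protein gene Aif1 rose by 1.52 ± 0.091 (SE, n = 3 per group; limma, adjusted p = 0.0053), and Fabp5, the fatty acid binding protein gene near Mist, had a difference of -0.54 ± 0.089 (adjusted p = 0.076).

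How these machines work is known mainly from yeast and cultured cells. HOPS and CORVET tether membranes to late and early endosomes before fusion, and ESCRT complexes sort ubiquitinated cargo into vesicles that bud inward into the endosome. Retromer and retriever return receptors from endosomes to the Golgi or the cell surface, GARP and EARP tether the returning vesicles, and VPS13 proteins bridge organelles and carry lipids between them. In macrophages this traffic delivers engulfed material to lysosomes and recycles surface receptors.

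No Vps gene was called (limma, lowest adjusted p = 0.078), where 0.415% of all genes were. At an unadjusted p under 0.05, 9 members (27.3%) were lower in Mist-targeted samples, against 5.79% of all genes, and 0 were higher, against 5.24%. The groups did not overlap in 13 members with every Mist-targeted value below every Control value (39.4%), against 9.97% of all genes, and in 2 members in the opposite direction (6.06%), against 9.99%. On every array 32 of the 33 members lay above the array median, and among the 11657 genes above the median level the shares were 14.7% lower without overlap, 14.5% higher without overlap and 9.62% lower at an unadjusted p under 0.05. The members' median difference was -0.061, against 0.0069 over all genes, and 21 of 33 were negative (63.6%), against 47.8% of all genes. When only probe sets listed with 1 gene were tested, an alternative taken up with earlier results of these data known, Vps37a, Vps13b, Vps39 and Vps8 were called lower (adjusted p 0.0054 to 0.046), where 1.88% of all genes were, and with a trended, robust spread Vps37a alone was, where 0.658% were.

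**Figure D1:**
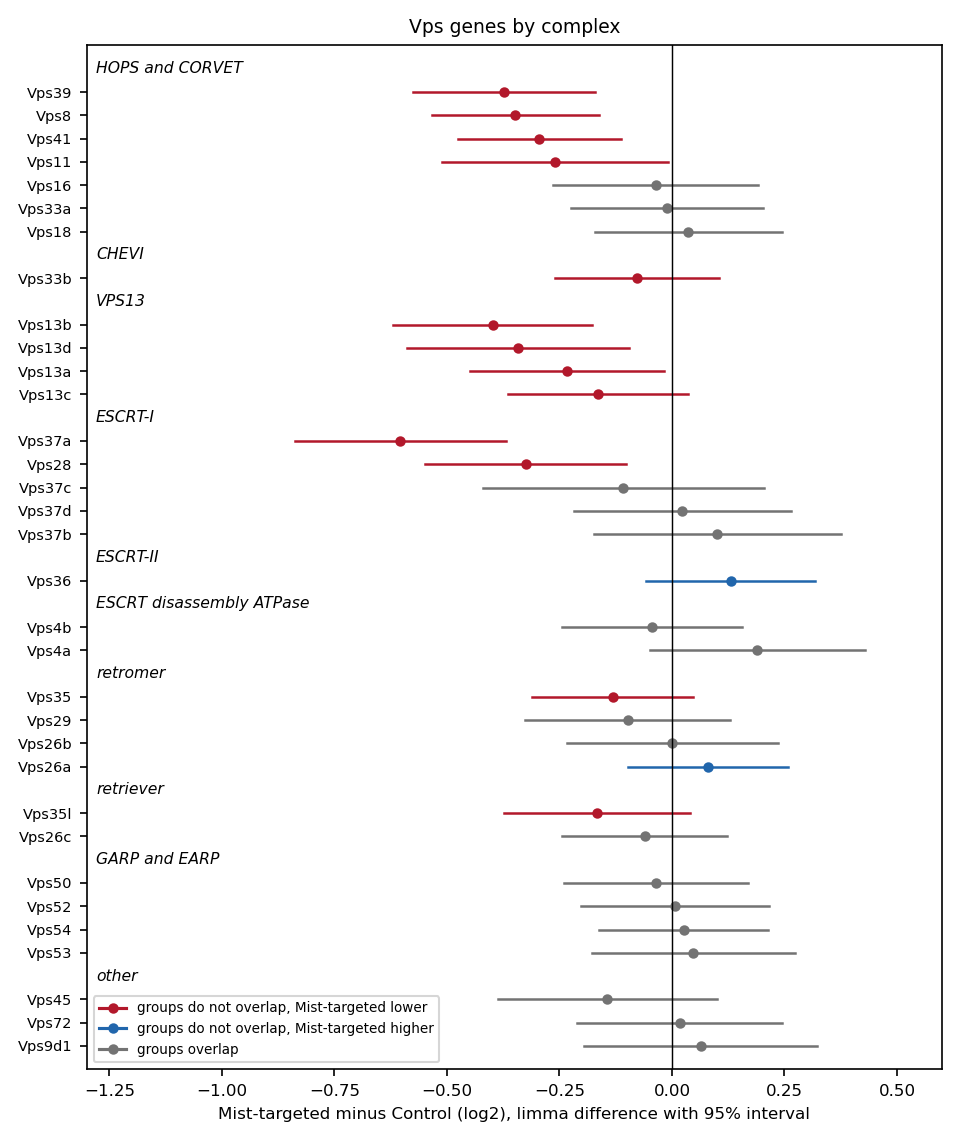
Difference between Mist-targeted and Control samples (log2, horizontal axis) for the 33 measured Vps genes, grouped by complex; points are limma differences and lines their 95% intervals, coloured by whether the 3 values of each group overlap. The HOPS and CORVET, VPS13 and ESCRT-I groups hold the 9 intervals that lie wholly below 0, while all 4 GARP and EARP genes lie within 0.05 of 0.

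The differences were small. Of the 33 members, 30 (90.9%) had a 95% interval that lay within 1.5-fold of no difference, close to the 93.2% of all genes, and the 3 whose interval reached further were Vps37a, Vps13b and Vps13d. The SE of a member's difference was 0.076 to 0.13 on the log2 scale. In this bulk measurement, less RNA per cell and fewer cells that express a gene cannot be told apart.

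HOPS and CORVET share a core of Vps11, Vps16, Vps18 and Vps33a; Vps39 and Vps41 are added in HOPS, and Vps8 in CORVET. Of the subunits with Vps symbols, Vps39, Vps41 and Vps8 had the lowest differences. The CORVET subunit Tgfbrap1, whose symbol does not begin with Vps, went the other way, with all Mist-targeted values above all Control values. Its difference was 0.11 ± 0.079 (SE, n = 3 per group, limma adjusted p = 0.73). Vps39, which binds the Rab7 homologue in yeast, measured 8.84, 8.92 and 8.94 on the Mist-targeted arrays, against 9.21, 9.38 and 9.24 on the Control arrays. All Mist-targeted values lay below all Control values, and the difference was -0.37 ± 0.086 (SE, n = 3 per group; limma, adjusted p = 0.17), or 1.30-fold lower.

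Vps8, the CORVET subunit that binds the Rab5 homologue in yeast, measured 6.98, 7.01 and 6.91 on the Mist-targeted arrays, against 7.30, 7.29 and 7.36 on the Control arrays. The groups lay apart by more than either group's own range (difference -0.35 ± 0.080, adjusted p = 0.16). A dimmer probe set of Vps8, at 4.65, 5.10 and 4.97 in Mist-targeted and 4.75, 4.68 and 4.94 in Control samples, differed by 0.12 ± 0.14, so the differences of the 2 probe sets have opposite signs. Vps41, the other HOPS subunit, which binds the lysosomal GTPase Arl8, measured 9.63, 9.72 and 9.67 in Mist-targeted samples, against 9.97, 9.95 and 9.98 in Control samples. Its Control values lay within 0.03 of each other, and all Mist-targeted values lay below them (difference -0.29 ± 0.078, adjusted p = 0.22).

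In the shared core, Vps11, a scaffold subunit with a RING domain, measured 8.42, 8.73 and 8.68 in Mist-targeted samples and 8.82, 8.84 and 8.95 in Control samples. The groups did not overlap, but replicate 1 of the Mist-targeted samples stood below the others (difference -0.26 ± 0.11, adjusted p = 0.49; -0.16 without that array). Vps16, Vps33a and Vps18 had overlapping groups and differences of -0.036, -0.011 and 0.037. Vps16 and Vps33a form the SNARE-binding part of the core, with Vps33a the Sec1/Munc18 protein that holds the SNARE bundle, and Vps18 is a second RING subunit. A dimmer probe set of Vps18 differed by -0.14 ± 0.10. The core thus had a median difference of -0.023, and Vps39, Vps41 and Vps8 one of -0.35. This split was noticed in the values, leaves out Tgfbrap1 and was not tested.

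The sequences upstream of 2 specific subunits and of a core subunit are shown as examples. Whether they bear on the split within this machine was not tested. They are the 250 bases before the annotated start in RefSeq (GRCm38.p6): Vps41 at chr13:18717042-18717291 on the plus strand, Vps8 at chr16:21422868-21423117 on the plus strand, and Vps33a at chr5:123573016-123573265 on the minus strand. Capitals mark the E-box CACGTG, the core of the element bound by TFEB and its relatives, which are known for driving lysosomal genes.
Vps41: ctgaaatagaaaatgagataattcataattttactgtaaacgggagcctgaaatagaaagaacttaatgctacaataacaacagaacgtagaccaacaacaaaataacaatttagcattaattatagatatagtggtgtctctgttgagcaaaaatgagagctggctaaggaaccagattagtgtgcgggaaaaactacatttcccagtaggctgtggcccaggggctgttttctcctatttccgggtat
Vps8: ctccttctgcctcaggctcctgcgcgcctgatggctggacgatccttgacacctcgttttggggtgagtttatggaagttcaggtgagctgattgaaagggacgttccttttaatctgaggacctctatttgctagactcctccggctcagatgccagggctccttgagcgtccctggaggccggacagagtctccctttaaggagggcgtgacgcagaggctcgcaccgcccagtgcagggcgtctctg
Vps33a: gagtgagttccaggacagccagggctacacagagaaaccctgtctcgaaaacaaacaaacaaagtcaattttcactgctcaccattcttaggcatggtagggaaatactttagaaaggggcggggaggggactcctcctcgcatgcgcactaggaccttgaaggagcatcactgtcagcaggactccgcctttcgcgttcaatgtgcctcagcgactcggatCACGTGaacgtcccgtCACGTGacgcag
The window of Vps33a holds the E-box at 28 and at 12 bases before the start, and the windows of Vps41 and Vps8 hold none. Of the other core genes, Vps16 holds 1 in its window and Vps18 holds none. No window was available for Vps11 and Vps39.

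Over all members, 27 such windows of 22 genes were in the table, among them Vps25, which was not measured on its own. Searched on both strands, CACGTG stood in 4 of the 27 windows (14.8%), which belong to Vps16, Vps26a and Vps33a, against 6.02% of 32851 windows of all genes. The shorter ACGTG, the core of the hypoxia response element, which is also contained in the E-box, stood in 9 windows (33.3%), against 16.6% of all windows. Of the 13 members whose Mist-targeted values lay below all Control values, 4 had a window (Vps8, Vps13a, Vps13d and Vps41), and 0 of the 4 held either motif. Given the shares over all windows, 4 genes are too few for this count to be read as a result.

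Vps33b, a relative of Vps33a that acts in the separate CHEVI complex, had values of 9.63, 9.69 and 9.60 in Mist-targeted samples, against 9.71, 9.74 and 9.71 in Control samples. The groups did not overlap, yet the difference of -0.078 ± 0.078 (adjusted p = 0.84) was about the size of its SE. Its partner in CHEVI, Vipas39, had a difference of -0.42 ± 0.10 (adjusted p = 0.19), with 7.81, 8.01 and 8.04 in Mist-targeted samples, against 8.30, 8.48 and 8.33 in Control samples.

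**Figure D2:**
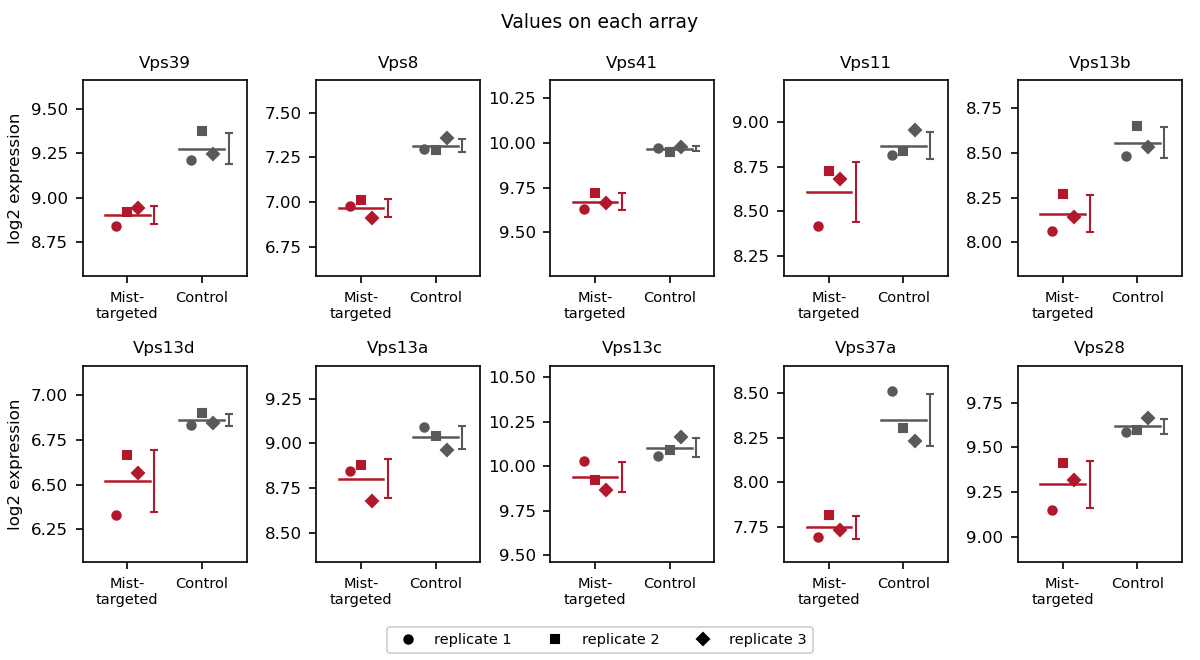
Log2 expression on each array for 4 HOPS and CORVET genes, 4 VPS13 genes and 2 ESCRT-I genes; each point is an array (symbols give the replicate number), lines are group means, bars are SD (n = 3), and every panel spans the same log2 range. The 10 genes are those of these complexes whose Mist-targeted values all lie below the Control values, so that pattern follows from the choice. Replicate 1 is the lowest Mist-targeted array in 7 of the 10, against 43.3% of other genes above the median level.

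The VPS13 family consists of very large proteins that form channels for lipids at contacts between organelles, and mutations in each human gene cause a neurological or developmental disease. In all 4 genes every Mist-targeted value lay below every Control value, and the differences had a median of -0.29. The same held for 9.97% of all genes and for 14.7% of those above the median level. Vps13b, which acts at the Golgi apparatus, measured 8.06, 8.27 and 8.14 in Mist-targeted samples, against 8.48, 8.65 and 8.54 in Control samples. Its difference of -0.40 ± 0.094 (SE, n = 3 per group; limma, adjusted p = 0.18), or 1.32-fold lower, was the largest of the family.

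Vps13d, which is needed for the shape and clearance of mitochondria, measured 6.33, 6.66 and 6.57 in Mist-targeted samples, against 6.84, 6.90 and 6.85 in Control samples. Replicate 1 of the Mist-targeted samples was the lowest array, and the difference was -0.34 ± 0.11 (adjusted p = 0.31). Vps13a, the gene of chorea-acanthocytosis in humans, measured 8.85, 8.88 and 8.68 in Mist-targeted samples, against 9.09, 9.04 and 8.96 in Control samples. The nearest values of the groups were less than 0.1 apart (difference -0.23 ± 0.092, adjusted p = 0.47). Vps13c, found at contacts of the endoplasmic reticulum with late endosomes and lipid droplets, measured 10.03, 9.92 and 9.86 in Mist-targeted samples, against 10.06, 10.09 and 10.16 in Control samples. The groups nearly touched (difference -0.16 ± 0.086, adjusted p = 0.62). Of the structural relatives and bridges, Atg2a, Atg2b and Xk, 0 were called, as were 0 of the VPS13 genes and 0.415% of all genes. The relatives and bridges had a median difference of -0.0084, with Atg2a at -0.088 ± 0.13.

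In ESCRT-I, 2 of the 5 measured genes were lower without overlap, as were 9.97% of all genes and 14.7% of those above the median level. The other 3 overlapped, and the median difference was -0.11. Vps37a had the largest difference of all 33 Vps genes. Vps37a occupies the slot in ESCRT-I for which Vps37a, Vps37b, Vps37c and Vps37d are alternatives. It measured 7.69, 7.82 and 7.73 in Mist-targeted samples, against 8.51, 8.30 and 8.23 in Control samples. The gap between the groups was wider than the range of either, and the difference was -0.60 ± 0.10 (SE, n = 3 per group; limma, adjusted p = 0.078), or 1.52-fold lower with a 95% interval of -0.84 to -0.37. Of the 22180 genes, 0.712% had a difference as low or lower.

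Its 3 alternatives had overlapping groups. Vps37c measured 6.18, 6.59 and 6.59 in Mist-targeted samples, against 6.64, 6.43 and 6.61 in Control samples (difference -0.11 ± 0.13), Vps37b differed by 0.10 ± 0.12, and Vps37d by 0.023 ± 0.10. Vps37d was the only measured member with values below the array medians, at 4.19 to 4.44 in Mist-targeted and 4.20 to 4.41 in Control samples, so little can be read from it. Differences between these paralogs were not tested. Vps28, the subunit that links ESCRT-I to ESCRT-II, measured 9.15, 9.41 and 9.32 in Mist-targeted samples, against 9.59, 9.60 and 9.67 in Control samples. Every Mist-targeted value was below every Control value (difference -0.33 ± 0.095, adjusted p = 0.28).

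In ESCRT-II 1 gene was measured, and 2 ESCRT ATPases were. Of these genes 0 were lower without overlap, where 9.97% of all genes were, and they are too few for this count to be read as a result. Vps36, the ESCRT-II subunit that binds ubiquitin and the endosomal membrane, measured 9.51, 9.43 and 9.37 in Mist-targeted samples, against 9.30, 9.29 and 9.32 in Control samples. It was 1 of the 2 members that were higher without overlap (difference 0.13 ± 0.081, adjusted p = 0.69). The probe set that Vps25, the other ESCRT-II subunit among the members, shares with Ramp2 differed by -0.0011 ± 0.10. Vps4a and Vps4b are the ATPases that take ESCRT-III filaments apart. Vps4a, the largest positive difference among the members, measured 7.78, 8.02 and 8.01 in Mist-targeted samples, against 7.64, 7.80 and 7.79 in Control samples (difference 0.19 ± 0.10, adjusted p = 0.63), with overlapping groups, and Vps4b differed by -0.044 ± 0.086.

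Retromer pairs Vps35 and Vps29 with either Vps26a or Vps26b. Vps35, its backbone, measured 10.54, 10.55 and 10.54 in Mist-targeted samples, against 10.72, 10.67 and 10.64 in Control samples. The groups lay apart, but the difference of -0.13 ± 0.077 (adjusted p = 0.67) was small. Vps26a lay apart in the opposite direction, with 10.35, 10.35 and 10.38 in Mist-targeted samples, against 10.30, 10.24 and 10.29 in Control samples (difference 0.080 ± 0.076, adjusted p = 0.82). Vps29 and Vps26b overlapped, with differences of -0.099 ± 0.098 and 0.00092 ± 0.10. Probe sets listed with further genes, Vps29 with Fam216a and Gpn3 and Vps26b with Thyn1, differed by -0.018 ± 0.078 and 0.13 ± 0.11. In retriever, a relative of retromer that recycles integrins, Vps35l measured 8.65, 8.74 and 8.60 in Mist-targeted samples, against 8.92, 8.74 and 8.83 in Control samples. Its groups were separated by less than 0.01, and the difference was -0.17 ± 0.088 (adjusted p = 0.63). Vps26c differed by -0.061 ± 0.079.

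The GARP and EARP tethers showed the smallest differences of any complex with more than 2 measured genes. Vps52 and Vps53 belong to both tethers, Vps54 to GARP and Vps50 to EARP, and their differences were 0.0067, 0.047, 0.026 and -0.035, with SE of 0.080 to 0.096 and overlapping groups in all 4. Each 95% interval lay between -0.24 and 0.27. The probe set that Vps51, the remaining shared subunit, has in common with Zfpl1 differed by -0.14 ± 0.13, with 5.65, 5.83 and 6.10 in Mist-targeted samples, against 5.90, 6.05 and 6.06 in Control samples. Outside these complexes, Vps45, the Sec1/Munc18 protein of early endosomes, differed by -0.14 ± 0.10. Vps9d1, which carries a domain of Rab5 activators, differed by 0.064 ± 0.11, and Vps72, which in spite of its name is a chromatin protein that handles a histone variant, by 0.017 ± 0.097; all 3 had overlapping groups.

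**Figure D3:**
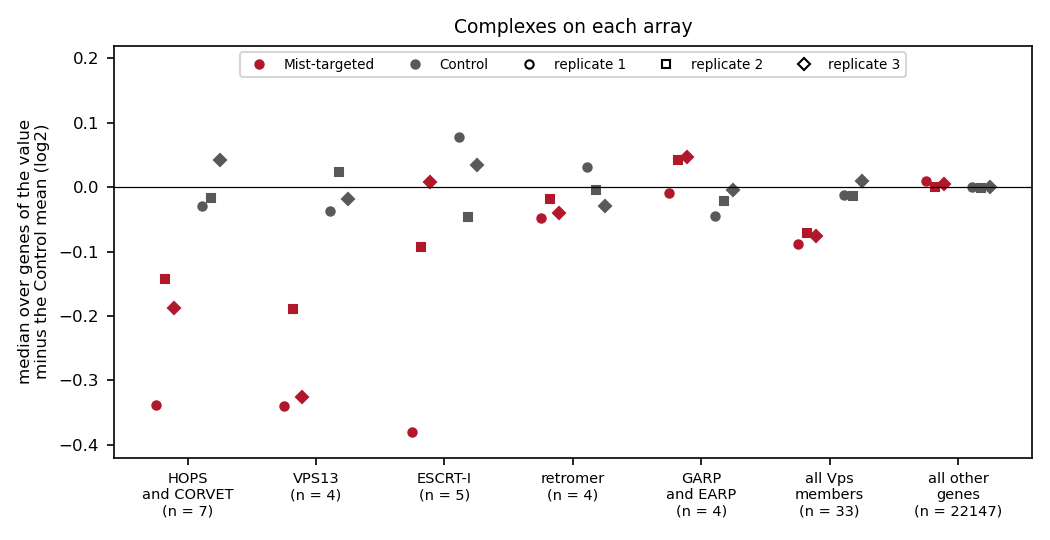
Median over the genes of a group of the log2 value minus the gene's Control mean, for each array (symbols give the replicate number); no error bars are drawn, since each point is 1 array. HOPS and CORVET and VPS13 lie below 0 on all 3 Mist-targeted arrays, and ESCRT-I rests largely on replicate 1. For the first 2 groups this follows from the gene values, since 4 of 7 and 4 of 4 genes are lower without overlap. Control points are held near 0 by subtracting the Control mean. GARP and EARP lie near 0, as do all other genes.

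Replicate 1 was the lowest Mist-targeted array for 16 of the 33 members (48.5%), against 35.96% of all other genes and 43.3% of those above the median level. Seen array by array, the medians of HOPS and CORVET on the Mist-targeted arrays were -0.34, -0.14 and -0.19 relative to the Control mean, and those of VPS13 were -0.34, -0.19 and -0.33. The same medians on the Control arrays lay between -0.037 and 0.042 for both groups. Each gene's Control values average 0 on this scale, which holds these medians near 0. Since 4 of 7 HOPS and CORVET genes and 4 of 4 VPS13 genes were lower without overlap, their negative Mist-targeted medians are no separate result. In ESCRT-I the Mist-targeted medians were -0.38, -0.093 and 0.0084, against 0.078, -0.046 and 0.034 on the Control arrays. Replicate 1 stood furthest from the Control medians, so the median of that complex rested largely on that array. Without Mist-targeted replicate 1, the median difference was -0.16 for HOPS and CORVET and -0.042 for ESCRT-I, and it was -0.25 for VPS13. When Vps8 and Vps18 were read as the mean of both their probe sets, the HOPS and CORVET median was -0.11.

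The same machines have partner genes whose symbols do not begin with Vps. Of 79 such genes 75 were measured; 1 fell and 0 rose, where 0.415% of all genes were called. The median difference was -0.0084, and 18 were lower without overlap (24.0%), against 9.97% of all genes, and 5 were higher (6.67%), against 9.99%. Among genes above the median level, the shares were 14.7% lower and 14.5% higher without overlap. The gene that fell was Sort1, which encodes sortilin, a receptor that carries lysosomal enzymes and lipoproteins and is itself returned by retromer. Sort1 measured 5.10, 5.15 and 5.10 in Mist-targeted samples, against 5.70, 5.78 and 5.68 in Control samples. Its replicates lay close together and the groups far apart (adjusted p = 0.042 by limma; difference -0.61 ± 0.079, or 1.52-fold lower). The level was low, between the array medians of 4.47 to 4.50 and the upper quartiles of 6.19 to 6.24. The call was lost when any single array was left out, with the replicate block, with no moderation and with trended, robust moderation. It was also lost with the mean over all Sort1 probe sets, which gave -0.40.

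In each machine the partner with the smallest p was the following. The SNARE gene Vti1a, which acts with GARP, had a difference of -0.51 ± 0.10 (adjusted p = 0.12), with 5.97, 6.23 and 6.17 in Mist-targeted samples, against 6.70, 6.55 and 6.64 in Control samples. All 4 GARP SNARE genes were negative, where 47.8% of all genes were, with a median of -0.13. Stx6 and Stx16 had overlapping groups and differences about the size of their SE (-0.087 ± 0.088 and -0.081 ± 0.086). The tether genes themselves were near 0, and a contrast between the tether and SNARE genes was not tested. The ESCRT-III gene Chmp1b differed by -0.34 ± 0.079 (adjusted p = 0.18) and the ESCRT-0 gene Stam by -0.19 ± 0.083 (adjusted p = 0.52). The ESCRT-I gene Mvb12a differed by -0.10 ± 0.12.

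The sorting nexin gene Snx2, which works with retromer, was higher without overlap (0.26 ± 0.081, adjusted p = 0.33), and Commd6 of the retriever-associated CCC complex was lower (-0.30 ± 0.080, adjusted p = 0.24). Uvrag, which joins the endosomal form of the VPS34 lipid kinase complex, differed by -0.24 ± 0.075 (adjusted p = 0.32). Of the 6 genes of that complex 5 were negative, where 47.8% of all genes were, with a median of -0.15. Rbsn, the endosomal partner of Vps45, differed by 0.040 ± 0.087. The partners of the HOPS, CORVET and CHEVI complexes had a median of -0.011 over 13 genes, and Vipas39 had the smallest p among them.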

How the data were processed

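Per the labels' protocols, column-purified, DNase-treated RNA was biotin-labelled by an Affymetrix protocol and hybridised to 6 arrays. The deposited log2 values were made by the authors; the submitters' processing notes name RMA and Partek and give neither version nor role, and the build is not given in the sources used here. Because RMA brings all arrays to a common distribution, a shift shared by most genes would be reduced. The values were taken unchanged and unfiltered, and all 6 columns entered the fit. Probe brightness differs between probe sets, so the order of levels between genes is not read as a result, and the number of arrays limits the precision.

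Of 41345 probe sets, 23521 were listed with 1 gene symbol, 1814 with several and 16010 with none. A linear model with a group term was fitted to every probe set with limma (version 3.58.1, R 4.3.3), with eBayes moderation, two-sided tests and adjustment over all probe sets. The script was tested on simulated data. No permutation test was used, since 3 samples against 3 allow no p below 0.1. The labels give no batch and do not say that replicates came from separate cultures; the spread behind the p-values may then be technical. Arrays of the same group correlated at 0.988 to 0.991, and arrays of different groups at 0.986 to 0.989.

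The members, complexes, partner lists and the restriction to listed probe sets were chosen with earlier results of these data known. Members described with array values are those called, those without overlap between the groups the largest differences in each direction, and the lowest and highest level; Vps37c and the second or shared probe sets of Vps8 and Vps51 were added after their values were seen. For partners, each called gene and the smallest p per machine are named, and Tgfbrap1 was added after its values were seen. Sequences are from RefSeq (GRCm38.p6), with motifs searched in Python 3.11.15. The alternatives were a fit with the replicate block, trended and robust moderation, none at all, array weights, dropping the dimmest 40% of probe sets, centring on medians, quantile normalization, restriction to probe sets listed with 1 gene, averages over a gene's probe sets, and dropping each array.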

Additional observations from a re-analysis of the deposited data

How the results depend on the processing

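With 3 arrays a group, the number of calls depended on the settings. Over all probe sets, 105 were called (limma), against 287 with trend and robust moderation, 161 without the dimmest 40%, 713 among listed probe sets only, 0 with the replicate block, 0 without moderation, and 2 to 40 with each array left out in turn. The share of lower calls was 49.5%, and 59.2% and 62.4% with robust moderation and listed probe sets only. Of the Vps genes, 0 were called as reported, with 9 at an unadjusted p under 0.05, and 0 under every alternative but 2: 1 with trend and robust moderation (Vps37a), where 0.658% of all genes were called lower, and 4 among listed probe sets only (Vps37a, Vps13b, Vps39 and Vps8), where 1.88% were. Of the partner genes, 1 was called; 0 were with the replicate block, robust moderation, no moderation, averaged probe sets or any array left out (0 to 0), and 3 among listed probe sets only.

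The labels do not say whether same-numbered arrays were paired. Deviations of same-numbered arrays correlated at 0.033 to 0.20, and those of differently numbered arrays at -0.15 to 0.060. Of the 6 arrays, 5 correlated best with their own number in the other group, and pairing was not tested. The replicate block leaves every difference as it is.

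With each array left out, the median difference was -0.090 to -0.062 for all members, -0.32 to -0.16 for HOPS and CORVET (-0.11 with averaged probe sets), -0.075 to -0.018 for retromer, 0.0025 to 0.045 for GARP and EARP, and -0.050 to 0.043 for the genes outside complexes. The sign held under all alternatives for 24 members, 17 of them negative, and 9 crossed 0. With arrays left out these ranged from -0.090 to 0.048 (Vps16), -0.020 to 0.074 (Vps18), -0.064 to 0.079 (Vps26b), -0.065 to 0.022 (Vps33a), -0.18 to 0.028 (Vps37c), -0.042 to 0.088 (Vps37d), -0.074 to 0.013 (Vps50), -0.036 to 0.068 (Vps52) and -0.050 to 0.064 (Vps72). The partners Atg2a (-0.16 to 0.031) and Rbsn (-0.015 to 0.069) crossed 0 too. Vps18 was at -0.053 with averaged probe sets, Vps52 at -0.00027 with median centring, and Vps26b at -0.017, -0.0060 and -0.0079 with quantile normalization, median centring and array weights. The causes of these shifts were not tested.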
